A study of Mus musculus with 16 samples.

Results

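The annexins are a family of proteins that bind acidic phospholipids when calcium rises, and 10 mouse annexin genes were considered here: Anxa1 to Anxa8, Anxa10 and Anxa11. Their members were taken as every probe set (a group of short oligonucleotides on the array that together measure one transcript) whose only gene symbol in the platform annotation was one of these names. This gave 12 of the 12488 probe sets on the array and 9 of the 10 genes. The probe set for Anxa11 carried several symbols, so Anxa11 was not analysed here. The family was selected on measured values of these same arrays, with the differences between normal and tumour epithelium already in view. The differences of its members between the groups are therefore a description: no p-value is given for them, and their counts past the limma threshold appear only beside those of all genes.

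The study profiled mouse ileal epithelial cells that were isolated by laser capture microdissection, in which selected cells are cut out of a tissue section. Their RNA was amplified in 2 rounds and hybridised to Affymetrix MG_U74Av2 arrays. There were 16 arrays in 3 groups: 6 of wild-type epithelium (WT), 5 of adenoma and 5 of carcinoma. The genotype, strain and age of the mice, the model that gave rise to the tumours, the number of animals and how regions were chosen are not stated in these sources. Arrays were not tied to animals by the labels, so every p-value below measures the spread between arrays, and would be too small if captures shared an animal.

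Annexins share a conserved core of repeats that docks on the membrane, and differ in a short N-terminal tail that binds other proteins. Many tails carry a site for a small calcium-binding protein of the S100 family or a related fold, and a complex of annexins can bring neighbouring membranes together. In epithelia the family is known for roles in secretion, endocytosis, repair of torn membranes, control of inflammation and surface fibrinolysis. Intestinal epithelial cells normally express several of its members.

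RefSeq promoter entries (build GRCm38.p6) were found for 8 of the 10 listed genes, Anxa3 and Anxa6 being those without one. The 250 bases before the annotated start are printed for Anxa1 and Anxa8, which had some of the largest differences in the family, and for Anxa2 and Anxa10, which hold matches to the AP-1 motif. Capitals mark matches, on either strand, to AP-1 (TGANTCA) or TEAD (GGAATG), and the windows were also searched for a TCF/LEF motif (CTTTGAT) and an E-box (CACGTG). The intervals are chr19:20390672-20390921 on the minus strand for Anxa1, chr14:34085729-34085978 on the plus strand for Anxa8, chr9:69453433-69453682 on the plus strand for Anxa2 and chr8:62123194-62123443 on the minus strand for Anxa10.
Anxa1: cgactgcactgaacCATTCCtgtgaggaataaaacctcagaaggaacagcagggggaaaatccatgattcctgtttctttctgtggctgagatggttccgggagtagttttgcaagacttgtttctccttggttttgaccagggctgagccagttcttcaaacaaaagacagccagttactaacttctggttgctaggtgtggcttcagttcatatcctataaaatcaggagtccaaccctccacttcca
Anxa8: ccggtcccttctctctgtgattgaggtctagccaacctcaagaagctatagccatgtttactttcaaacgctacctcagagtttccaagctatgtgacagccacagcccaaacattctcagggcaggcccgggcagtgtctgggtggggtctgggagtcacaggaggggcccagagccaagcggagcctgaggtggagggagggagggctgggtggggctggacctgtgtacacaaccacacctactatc
Anxa2: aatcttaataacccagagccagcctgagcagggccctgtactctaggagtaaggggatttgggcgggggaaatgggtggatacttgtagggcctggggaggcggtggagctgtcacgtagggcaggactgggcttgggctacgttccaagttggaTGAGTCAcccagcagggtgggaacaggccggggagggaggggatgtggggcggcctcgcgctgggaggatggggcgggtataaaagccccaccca
Anxa10: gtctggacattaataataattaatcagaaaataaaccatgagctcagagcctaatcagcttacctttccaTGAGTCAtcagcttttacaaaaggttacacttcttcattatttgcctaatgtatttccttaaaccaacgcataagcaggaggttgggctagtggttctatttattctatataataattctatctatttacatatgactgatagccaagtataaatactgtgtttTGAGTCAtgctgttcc

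Anxa1 held 1 TEAD match, whose far end lay 236 bases before the start. Anxa2 held 1 AP-1 match at 95 bases before it. Anxa10 held 2 AP-1 matches, at 180 and 16 bases before it. None of these matches overlapped another. None of the 4 motifs was found in the window of Anxa8, nor in those of Anxa4, Anxa5 and Anxa11, and Anxa7 had 1 E-box match in 1 of its 2 entries. Of all 32851 promoter windows of the same length, 6.75% held the AP-1 letters, 12.6% the TEAD letters, 3.21% the TCF/LEF letters and 6.02% the E-box letters. A match is a description of letters and not a site of binding, and no binding was measured in these samples.

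Signals below are the deposited linear intensities, which the arrays share on a common scale (a mean, trimmed by 2% at each end, of about 500). For the differences, values under 46.9, the 25th percentile of all values, were set to that value, called the floor, before the log2 transform. A log2 difference of 1 is a factor of 2, and each is given with its standard error (SE) from the limma fit across all genes. Of 8251 genes that had their own probe set, 7455 were above the floor on at least 5 of the 16 arrays and were tested. All 9 annexins with a probe set passed this filter. Anxa3, Anxa8 and Anxa10 passed it with the help of the tumour arrays, since on the WT arrays they were at the floor on 2, 3 and 5 of 6. In these bulk captures, fewer cells of a type and less RNA per cell cannot be told apart.

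Several measures of context apply to everything that follows. Of 13 tested markers of intestinal epithelium, none was at the floor on every array; 2 fell in adenoma (Cdx1 and Fabp2) and 2 in carcinoma (Krt20 and Fabp2), and the list's summed log2 signal ran from 16.67 to 17.78 in WT, from 16.28 to 16.84 in adenoma and from 15.93 to 17.02 in carcinoma. The spike-in controls, read by the BioB, BioC, BioDn and Cre probe sets, are added transcripts that do not come from the mouse. They averaged 13.74 on the log2 scale in WT (12.44 to 14.73), 12.24 in adenoma (11.38 to 13.47) and 12.23 in carcinoma (11.56 to 12.70). The difference from WT passed an exact two-sided permutation test in adenoma (p = 0.0325, adjusted p = 0.0487) and in carcinoma (p = 0.0238, adjusted p = 0.0487). The log2 ratio of the 3′ to the 5′ Gapdh probe set, a measure of how far transcripts were shortened, averaged 4.52 in WT (4.09 to 5.02), 5.82 in adenoma (5.52 to 6.12) and 5.70 in carcinoma (4.95 to 6.45). Its difference from WT also passed the exact test in adenoma (p = 0.00217) and carcinoma (p = 0.00433), both with an adjusted p of 0.00649. Values of the members with these measures as covariates are given with the results; no other test of their part was made.

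Anxa1, also called lipocortin 1, is a glucocorticoid-induced protein that limits inflammation through formyl peptide receptors, and its difference was the largest in the family. On the 6 WT arrays the signal of Anxa1 (probe set 93038_f_at) ran from 397 to 659, with a median of 478. The 5 adenoma arrays read 19792, 18441, 12599, 26223 and 13402. The 5 carcinoma arrays read 13430, 20578, 18104, 34309.7 and 22620. All 10 tumour arrays lay far above every WT array, the lowest being 19.1 times the highest WT array, while adenoma and carcinoma overlapped. On the log2 scale the mean stood at 8.98 ± 0.32 in WT (SD, n = 6), 14.09 ± 0.43 in adenoma (SD, n = 5) and 14.34 ± 0.49 in carcinoma (SD, n = 5). Anxa1 was thus higher than in WT by 5.12 ± 0.28 (SE) in adenoma, a 34.7-fold difference, and by 5.37 ± 0.28 in carcinoma, a 41.3-fold difference.

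Anxa1 was measured by 3 probe sets, which did not give the same size. The probe set 161703_f_at read 215 to 605 in WT, 10655 to 16512 in adenoma and 11535 to 25704 in carcinoma, and gave differences of 5.04 ± 0.28 and 5.24 ± 0.28. The dim probe set 93037_i_at read 24.5 to 161 in WT, 80.7 to 248 in adenoma and 146 to 366 in carcinoma, so that WT overlapped both tumour groups. Its differences were 1.49 ± 0.38 in adenoma and 1.80 ± 0.38 in carcinoma. Once each group's mean was removed, 161703_f_at and 93038_f_at correlated at r = 0.74 over the 16 arrays, while 93037_i_at correlated with them at r = -0.23 and r = -0.09. In the maker's naming the suffixes _f and _i mark probe sets that may share probes with another transcript or hold fewer of them. Averaging the 3 probe sets gave differences of 3.88 ± 0.22 in adenoma and 4.13 ± 0.22 in carcinoma.

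**Figure D1:**
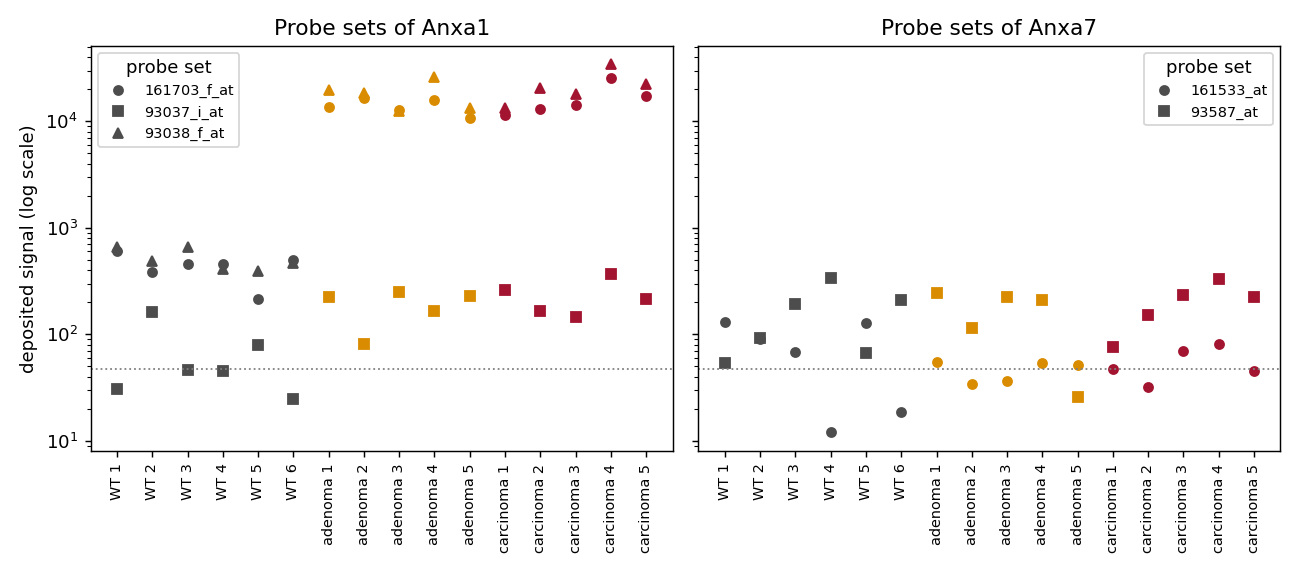
Deposited signal (log axis) of the 3 Anxa1 probe sets and the 2 Anxa7 probe sets on each of the 16 arrays, grouped as WT, adenoma and carcinoma; the dotted line is the floor. The 2 bright Anxa1 probe sets read at least 10655 on every tumour array and at most 659 in WT, while 93037_i_at reads at most 366; the 2 Anxa7 probe sets do not separate the groups.

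Anxa3, abundant in neutrophils and in several secretory epithelia, was near the floor in WT epithelium. Its WT signals (probe set 101393_at) ran from 16.1 to 124, with a median of 83.8. On the adenoma arrays it read 1122, 781, 1080.2, 554 and 2062, and the carcinoma arrays 1632, 1049, 1038, 1503 and 813. No tumour array overlapped WT, the lowest being 4.49 times the highest WT array, and the 2 tumour groups overlapped each other. Mean log2 signal stood at 6.26 ± 0.65 in WT, 9.99 ± 0.70 in adenoma and 10.19 ± 0.42 in carcinoma (SD, n = 6, 5 and 5). Relative to WT it was higher by 3.73 ± 0.36 in adenoma (13.2-fold) and 3.93 ± 0.36 in carcinoma (15.2-fold), with 2 WT arrays held at the floor.

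Anxa8, an anticoagulant annexin best known from squamous and other stratified epithelia, differed from WT by a like amount. Its WT signals (probe set 97529_at) ran from 8.4 to 149, with a median of 52.8. In adenoma the arrays read 538, 989, 769, 1506 and 926, and the carcinoma arrays 778, 1028, 713, 1431 and 1296. Every tumour array lay above every WT array, by at least 3.61 times, and adenoma and carcinoma overlapped. On the log2 scale it averaged 6.02 ± 0.66 in WT, 9.80 ± 0.54 in adenoma and 9.98 ± 0.44 in carcinoma (SD, n = 6, 5 and 5). It exceeded WT by 3.78 ± 0.34 in adenoma (13.7-fold) and 3.96 ± 0.34 in carcinoma (15.5-fold), with 3 WT arrays held at the floor. With the floor at the 40th percentile, which holds more of the WT values, these became 2.92 ± 0.25 and 3.10 ± 0.25.

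Markers of other cell types that express these annexins were read on the same arrays. Of 19 tested macrophage and neutrophil markers, none passed the limma test as higher in either tumour group; Cxcr2 and Camp fell in adenoma and Cxcr2 in carcinoma, and Itgam was at the floor on every array. Their summed log2 signal ran from 12.95 to 14.46 in WT, from 13.23 to 14.04 in adenoma and from 13.55 to 14.16 in carcinoma, so the groups overlapped, and the list's median difference from WT was -0.44 in adenoma and -0.08 in carcinoma. Of 10 tested gastric and squamous markers, Tff2 and Krt6a passed as higher in adenoma and Tff2 in carcinoma, with Atp4b, a parietal cell gene, at the floor on every array. The summed signal of that list was 11.64 to 12.45 in WT, 12.18 to 12.90 in adenoma and 11.57 to 12.99 in carcinoma. Its median difference from WT was -0.35 in adenoma and -0.33 in carcinoma, below the -0.14 of all genes in both. Of 8 tested mast cell markers, Mcpt1, Mcpt2 and Cpa3 rose in both tumour groups, and the summed signal of 10.45 to 11.24 in WT lay below the 12.03 to 13.16 of adenoma and the 11.28 to 12.18 of carcinoma. The median difference of the mast cell list was 1.08 in adenoma and 0.26 in carcinoma. The part of mast cells or of gastric-type cells in the annexin signals was not tested.

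**Figure D2:**
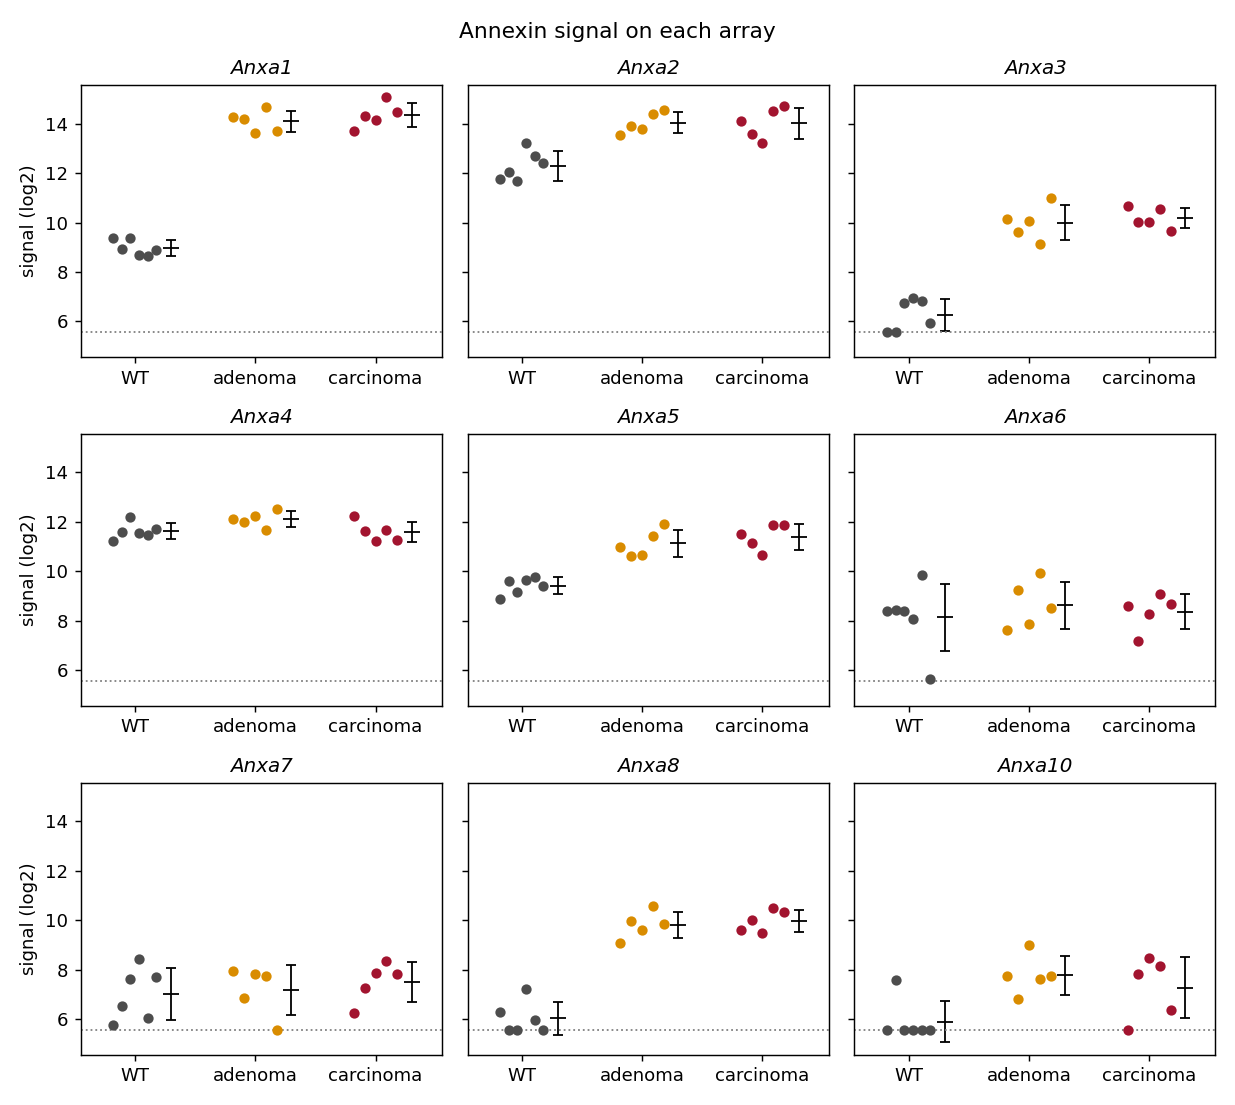
Log2 signal of each of the 9 annexins on the 16 arrays, with one point per array and bars for the group mean ± SD (WT n = 6, adenoma n = 5, carcinoma n = 5); the dotted line is the floor. In Anxa1, Anxa3, Anxa5 and Anxa8 all 10 tumour arrays sit above every WT array, while in Anxa4, Anxa6 and Anxa7 the groups overlap.

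Anxa2 carries plasminogen and its activator on the cell surface when it is bound to S100a10, and links membranes to the actin cytoskeleton. In WT its signal (probe set 100569_at) ran from 3265 to 9570.2, with a median of 4821. Adenoma arrays gave 11799, 15295, 14077, 21645 and 23723, and the carcinoma arrays 17640.1, 12334, 9414, 23085 and 26514. Of the 10 tumour arrays 9 lay above every WT array, the exception being the carcinoma array at 9414, which was 0.984 times the highest WT array. The log2 mean stood at 12.30 ± 0.60 in WT, 14.03 ± 0.43 in adenoma and 14.02 ± 0.62 in carcinoma (SD, n = 6, 5 and 5). The difference from WT was 1.73 ± 0.33 in adenoma (3.32-fold) and 1.72 ± 0.33 in carcinoma (3.30-fold). Once the Gapdh ratio entered the fit, the differences of Anxa2 were 1.02 ± 0.56 and 1.07 ± 0.52.

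Anxa5 binds phosphatidylserine exposed on dying or activated cells, which is why it is used to stain apoptotic cells. Its WT signals (probe set 93083_at) ran from 475 to 877, with a median of 738. The adenoma arrays read 2055, 1579, 1628, 2758 and 3875, and the carcinoma arrays 2932, 2252, 1600.2, 3718 and 3749.9. Every tumour array was above every WT array, by at least 1.80 times, with the 2 tumour groups overlapping. Mean log2 signal stood at 9.43 ± 0.33 in WT, 11.13 ± 0.55 in adenoma and 11.41 ± 0.52 in carcinoma (SD, n = 6, 5 and 5). Relative to WT it was higher by 1.70 ± 0.30 in adenoma (3.26-fold) and 1.98 ± 0.30 in carcinoma (3.95-fold). The Gapdh covariate gave 1.33 ± 0.52 and 1.64 ± 0.48 for Anxa5.

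Both Anxa2 and Anxa5 are also abundant in stromal cells. Of 12 tested fibroblast markers, Fn1 rose in adenoma; in carcinoma Col1a1, Dcn and Fn1 rose and Col6a1 fell. Their summed log2 signal was 12.81 to 13.66 in WT, 13.14 to 13.82 in adenoma and 13.55 to 14.40 in carcinoma, with median differences from WT of 0.15 and 0.45. Of 10 tested endothelial markers, Cdh5 and Sox17 rose in adenoma and Sox17 in carcinoma, with summed signals of 11.81 to 12.79, 12.57 to 13.64 and 12.24 to 13.60 and median differences of 0.40 and 0.66. Of 8 tested smooth muscle markers, Acta2 and Myh11 fell in both tumour groups and Myl9 rose in adenoma, and the summed signal was 12.36 to 13.14 in WT, 11.75 to 12.86 in adenoma and 11.43 to 11.85 in carcinoma, with median differences of -0.97 and -0.94. Of 11 tested lymphocyte and plasma cell markers, 4 fell in adenoma (Il2rb, Cd79b, Ms4a1 and Jchain) and 2 in carcinoma (Il2rb and Jchain), with summed signals of 10.92 to 11.69, 10.25 to 10.83 and 10.32 to 11.11 and median differences of -0.58 and -0.39. The part of these cells in the signals of Anxa2 and Anxa5 was not tested.

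Anxa10, an unusual annexin of the gastric mucosa with weak calcium binding, was at the floor on 5 of the 6 WT arrays. Its WT signals (probe set 92494_at) had a median of 22.4 and ran from 10.8 to 192, the highest being WT 2. On the adenoma arrays it read 214, 112, 509, 195 and 212, and the carcinoma arrays 18.4, 228, 354, 282 and 83.3. Of the 10 tumour arrays 7 lay above every WT array, 4 of adenoma and 3 of carcinoma, and 1 carcinoma array was at the floor. On the log2 scale it averaged 5.89 ± 0.83 in WT, 7.77 ± 0.78 in adenoma and 7.27 ± 1.25 in carcinoma (SD, n = 6, 5 and 5). With the WT arrays held at the floor, the fitted difference from WT was 1.88 ± 0.52 in adenoma and 1.38 ± 0.52 in carcinoma, and no fold is given since the floor sets its size. It was 2.87 ± 0.74 and 2.10 ± 0.74 with the floor at the 10th percentile, and 0.83 ± 0.35 and 0.67 ± 0.35 at the 40th. With the Gapdh covariate the difference of Anxa10 was 3.25 ± 0.83 in adenoma and 2.62 ± 0.78 in carcinoma.

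Anxa4, a secretory-epithelium annexin of apical membranes, was measured well above the floor in every group. Its WT signals (probe set 100584_at) ran from 2388 to 4768, with a median of 3032. In adenoma the arrays read 4484, 4078, 4855, 3262 and 5969.7, and the carcinoma arrays 4771, 3141, 2404, 3272 and 2471. Of the 10 tumour arrays 3 lay above every WT array, and all 3 groups overlapped. The log2 mean stood at 11.62 ± 0.33 in WT, 12.12 ± 0.32 in adenoma and 11.60 ± 0.40 in carcinoma (SD, n = 6, 5 and 5). The difference from WT was 0.49 ± 0.25 in adenoma and -0.02 ± 0.25 in carcinoma. The sign in carcinoma depended on the scaling, with -0.14 after quantile normalization and 0.30 with array medians aligned. With the spike-in covariate the differences of Anxa4 were 0.12 ± 0.29 in adenoma and -0.40 ± 0.29 in carcinoma.

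Anxa6, whose core is duplicated and which takes part in cholesterol handling and endocytosis, varied widely within each group. Its signals (probe set 94304_at) ran from 50.7 to 928 in WT, with a median of 339. Adenoma arrays gave 200.4, 611, 232, 966 and 367, and the carcinoma arrays 388, 147, 311, 548 and 411. The groups overlapped, with 1 tumour array above every WT array. Mean log2 signal stood at 8.14 ± 1.37 in WT, 8.64 ± 0.95 in adenoma and 8.37 ± 0.72 in carcinoma (SD, n = 6, 5 and 5), and the differences from WT were 0.50 ± 0.57 and 0.23 ± 0.57. Adjusted for the spike-in signal they were 1.92 ± 0.56 and 1.66 ± 0.56. No direction is given for Anxa6, whose differences were under 1 SD within groups and moved with the fit.

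Anxa7, or synexin, promotes fusion of secretory granules and binds sorcin, the product of Sri. Its brighter probe set 93587_at read 54 to 342 in WT, with a median of 143. The adenoma arrays read 243, 115, 226, 212 and 25.8, and the carcinoma arrays 75.5, 153, 234, 331 and 225. No tumour array exceeded the highest WT array, and the groups overlapped. On the log2 scale it averaged 7.01 ± 1.05 in WT, 7.17 ± 1.004 in adenoma and 7.51 ± 0.81 in carcinoma (SD, n = 6, 5 and 5), and the differences from WT were 0.16 ± 0.52 and 0.50 ± 0.52. The other probe set, 161533_at, was dim, at 12 to 131 in WT, 34.3 to 54.9 in adenoma and 32.3 to 80.3 in carcinoma. In each group 2 of its arrays were held at the floor of 46.9. Its differences were -0.63 ± 0.30 and -0.46 ± 0.30, of the opposite sign and limited by the floor. Within groups the pair correlated at r = -0.42 over the 16 arrays. For this reason Anxa7 is also given no direction.

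The differences from WT varied widely across the family. Those of Anxa1, Anxa3 and Anxa8 ran from 3.73 to 5.37 over both tumour groups, those of Anxa2 and Anxa5 from 1.70 to 1.98, and those of Anxa4, Anxa6 and Anxa7 from -0.02 to 0.50. That of Anxa10 moved with the floor and is placed with none of them. Those of Anxa3 and Anxa8 moved with the floor too, so their folds depend on where it is set. In adenoma Anxa3 gave 3.14 with the floor at the 40th percentile and 4.14 at the 10th, and Anxa8 gave 2.92 and 4.31. Over all 7455 genes the difference between adenoma and WT had a median of -0.14, with the 10th percentile at -0.87 and the 90th at 0.70, and that between carcinoma and WT a median of -0.14, with -0.89 and 0.74. For the 9 annexins the median was 1.73 in adenoma and 1.72 in carcinoma. At an adjusted p under 0.05 in the limma fit, 4.02% of all genes were called higher and 4.25% lower in adenoma than in WT, and 4.16% higher and 4.9% lower in carcinoma. Beside this background, 6 of the 9 annexins were called higher in adenoma and 5 in carcinoma, with none called lower in either; since the family was selected on these contrasts, nothing is read from the counts. The 2 tumour groups were set against the same 6 WT arrays, so their differences from WT share those controls.

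**Figure D3:**
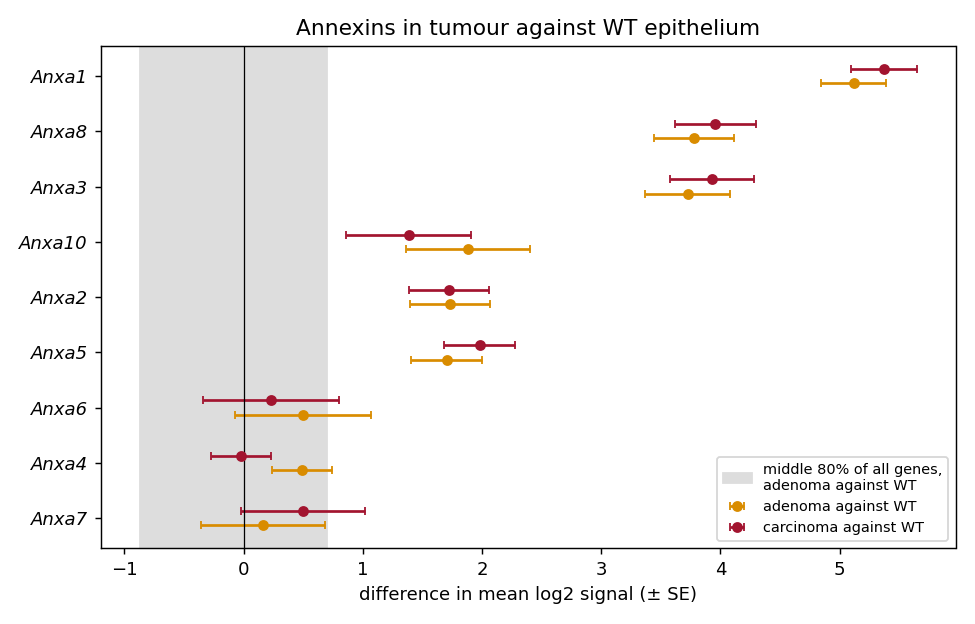
Log2 difference from WT for each of the 9 annexins in adenoma and in carcinoma, with bars for ± SE; the grey band spans the 10th to the 90th percentile of all 7455 genes in adenoma (-0.87 to 0.70). Anxa1 stands at 5.12 and 5.37, Anxa3 and Anxa8 between 3.73 and 3.96, and Anxa4, Anxa6 and Anxa7 within the band.

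Adenoma and carcinoma were compared directly, which asks whether the annexins differ between the benign and the malignant tumours. The arrays of the 2 groups overlapped for all 9 annexins. The difference of carcinoma from adenoma was 0.25 ± 0.29 (SE) for Anxa1, 0.20 ± 0.37 for Anxa3, 0.18 ± 0.35 for Anxa8, 0.28 ± 0.31 for Anxa5 and -0.01 ± 0.35 for Anxa2. It was 0.34 ± 0.55 for Anxa7, -0.27 ± 0.60 for Anxa6 and -0.50 ± 0.54 for Anxa10. For 8 of the 9 the difference was smaller than the SD within groups, Anxa4 being the exception at -0.51 ± 0.26. Of all genes 0.0268% were called in either direction, 2 of 7455, and none of the annexins was among them in the limma fit; at an unadjusted p under 0.05 the count of annexins was also 0. In Anxa1, Anxa3, Anxa5 and Anxa8 the WT mean was the lowest and carcinoma the highest, with the tumour groups not apart beyond their spread. In Anxa2 and Anxa10 the WT mean was also the lowest, and adenoma was the highest by less than that spread.

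The 2 control measures moved with the contrast, so the members were recomputed with each. Leaving out the 4 WT arrays of highest spike-in signal (WT 1, WT 2, WT 4 and WT 5) gave adenoma differences of 4.98 for Anxa1, 3.65 for Anxa3, 4.25 for Anxa8, 1.99 for Anxa2 and 1.83 for Anxa5. Adjusted for spike-in signal, the same genes gave 5.38, 3.29, 4.31, 2.07 and 1.98. Adjusted for the Gapdh ratio, they gave 5.57, 3.69, 3.50, 1.02 and 1.33. Of the tumour arrays only carcinoma 4, at 4.95, had a Gapdh ratio within the WT range of 4.09 to 5.02. Ratio and group can therefore hardly be told apart in that fit, and its SE was wider, at 0.52 against 0.30 for Anxa5 in adenoma. Over all 28 alternative analyses Anxa1 ranged from 3.88 to 5.57 in adenoma and from 4.13 to 5.78 in carcinoma, Anxa3 from 3.14 to 4.14 and from 3.35 to 4.34, and Anxa8 from 2.92 to 4.31 and from 3.10 to 4.49.

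**Figure D4:**
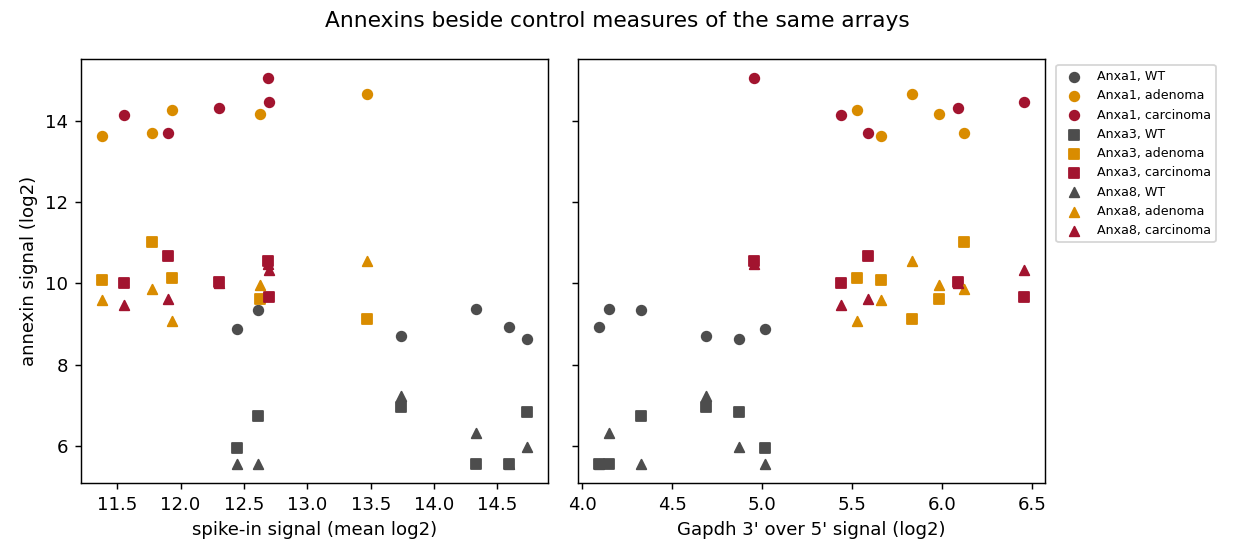
Log2 signal of Anxa1, Anxa3 and Anxa8 on each array plotted against the log2 spike-in signal and against the log2 ratio of the 3′ to the 5′ Gapdh probe set, by group. WT arrays span 12.44 to 14.73 in spike-in signal and 4.09 to 5.02 in Gapdh ratio, and 2 WT arrays, at 12.44 and 12.61, overlap the tumour arrays in spike-in signal.

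The direct partners of annexins were read from a list of 24 genes, of which 21 were on the array and tested by limma. Of these 2 rose in adenoma and 3 in carcinoma and none fell, beside 4.02% and 4.16% of all genes called higher. The median difference was 0.00 in adenoma and 0.06 in carcinoma, against -0.14 for all genes. S100a6, calcyclin, a partner of Anxa2 and Anxa11, read 227 to 612 in WT with a median of 393, from 952 to 2921 in adenoma and from 1576 to 2692 in carcinoma. All 10 tumour arrays lay above every WT array, and S100a6 rose by 2.18 ± 0.30 in adenoma (adjusted p = 0.000141) and 2.24 ± 0.30 in carcinoma (adjusted p = 8.3e-05). With the Gapdh covariate the rise of S100a6 was 1.57 ± 0.51 and 1.69 ± 0.48, with adjusted p of 0.225 and 0.103. Plat, tissue plasminogen activator, which docks on Anxa2, read 107 to 388 in WT, 3282 to 10228 in adenoma and 1267 to 9318 in carcinoma, with no overlap between WT and tumour. Plat rose by 4.63 ± 0.50 in adenoma (adjusted p = 5.6e-06) and 4.43 ± 0.50 in carcinoma (adjusted p = 9.3e-06), and passed in all 28 alternatives. S100a1 rose by 1.62 ± 0.44 in carcinoma (adjusted p = 0.0262), and its difference in adenoma was 1.43 ± 0.44 (adjusted p = 0.0518). The carcinoma call of S100a1 was lost without WT 1, WT 2, WT 3, carcinoma 2 or carcinoma 4, with values from 1.43 to 1.48 and adjusted p from 0.0552 to 0.0766, and it was 0.50 ± 0.21 over the mean of its probe sets (adjusted p = 0.154). S100a1 also missed with the spike-in covariate at 1.41 ± 0.58 (adjusted p = 0.207), the Gapdh covariate at 0.87 ± 0.70 (adjusted p = 0.681), without WT 1, WT 2, WT 4 and WT 5 at 1.72 ± 0.51 (adjusted p = 0.0973) and with just the 2 groups fitted (adjusted p = 0.0525).

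S100a10, the partner with which Anxa2 forms its surface complex, did not pass. Its WT arrays read 2410.3 to 12077, the highest being WT 4, which was also the highest WT array for Anxa2. On the adenoma arrays it read 4374, 3654, 5218, 5151 and 7297, and the carcinoma arrays 6596, 4093, 3294, 6265 and 5660.3. The groups overlapped, and the difference of S100a10 from WT was 0.29 ± 0.37 in adenoma (adjusted p = 0.669) and 0.29 ± 0.37 in carcinoma (adjusted p = 0.660), from the same limma fit. For the partners of Anxa7, Pdcd6 differed by 0.57 ± 0.27 and 0.47 ± 0.27 (adjusted p = 0.216 and 0.294) and Sri by 0.32 ± 0.24 and 0.41 ± 0.24 (adjusted p = 0.449 and 0.312). Fpr2, a receptor for Anxa1, differed by -0.17 ± 0.29 and -0.19 ± 0.29 (adjusted p = 0.753 and 0.713). Its signal was near the floor, at which 1 WT, 3 adenoma and 2 carcinoma arrays were held, so the size of its difference is limited by the floor. S100a11, Fpr1 and Fpr3 were not analysed here, having no probe set of their own.

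**Figure D5:**
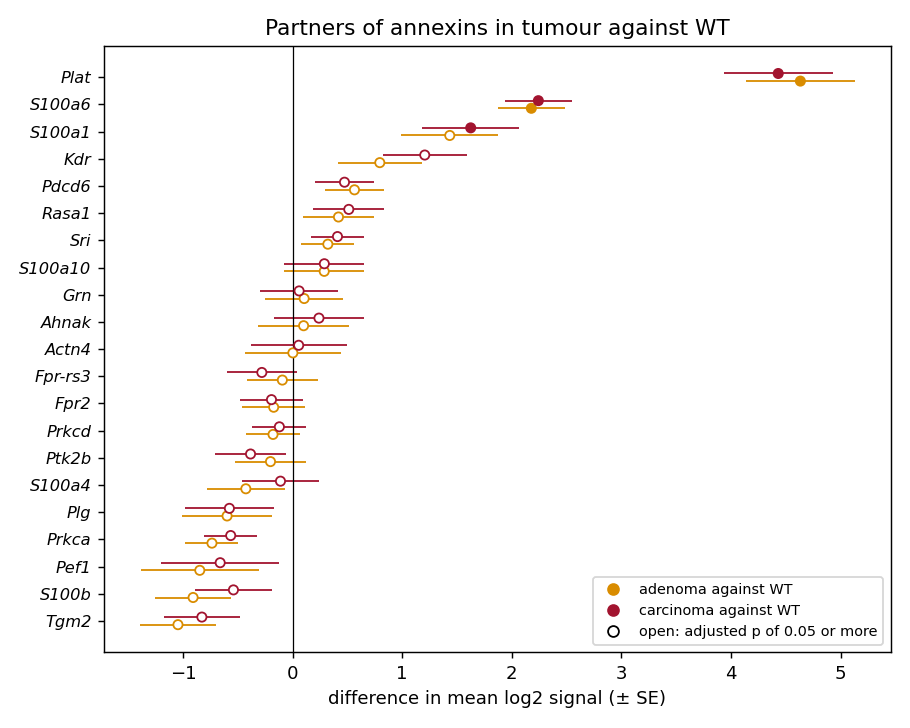
Log2 difference from WT ± SE of the tested genes of the annexin partner list, in adenoma and in carcinoma. Filled points have an adjusted limma p under 0.05. Plat and S100a6 are filled in both tumour groups, at 4.63 and 2.18 in adenoma, while S100a10 is open at 0.29 in both.

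Genes of membrane repair and calcium-dependent membrane binding, which act beside annexins at torn membranes, numbered 25, of which 17 were tested. Of these 2 rose and 1 fell in adenoma and 2 rose in carcinoma. Of all genes 4.02% were called higher and 4.25% lower in adenoma, and 4.16% higher in carcinoma. The list's median was 0.24 and 0.30, against -0.14 for all genes in both. Capn2, the large subunit of a calpain protease, read 38.3 to 213 in WT, lay higher on all 10 tumour arrays, and rose by 3.14 ± 0.37 in adenoma (adjusted p = 1.7e-05) and 3.05 ± 0.37 in carcinoma (adjusted p = 2.3e-05). The mean of its probe sets gave 1.57 ± 0.22 and 1.52 ± 0.22 for Capn2 (adjusted p = 0.000198 and 0.000213), the smallest values over the 28 alternatives, in all of which it passed. Cpne1, a copine, rose by 1.10 ± 0.32 in adenoma (adjusted p = 0.0389) and 1.24 ± 0.32 in carcinoma (adjusted p = 0.0176). The adenoma call of Cpne1 was lost without WT 2, WT 4, WT 5, adenoma 1, adenoma 2 or adenoma 5, with values from 0.91 to 1.10 and adjusted p from 0.0646 to 0.107; that in carcinoma was lost without carcinoma 1, at 1.14 and 0.0531. With the spike-in covariate Cpne1 gave 0.62 ± 0.37 and 0.76 ± 0.38 (adjusted p = 0.398 and 0.306), with the Gapdh covariate 1.64 ± 0.54 and 1.74 ± 0.51 (adjusted p = 0.225 and 0.118) and without WT 1, WT 2, WT 4 and WT 5 0.67 ± 0.38 and 0.81 ± 0.38 (adjusted p = 0.495 and 0.365). In adenoma Cpne1 also missed with the floor at the 10th percentile (adjusted p = 0.0537) and with just the 2 groups fitted (adjusted p = 0.0642). Cavin1, a caveolar coat gene, fell by 0.90 on the log2 scale in adenoma, with an SE of 0.23 and an adjusted p of 0.0187, and its call was lost without adenoma 1, adenoma 3 or adenoma 5, with values from -0.86 to -0.81 and adjusted p from 0.0526 to 0.0591. Cavin1 also missed the threshold at -0.58 with the spike-in covariate (adjusted p = 0.239), -0.70 with the Gapdh covariate (adjusted p = 0.601), -0.73 without the 4 high spike-in WT arrays (adjusted p = 0.323), -0.77 over the mean of its probe sets (adjusted p = 0.160) and -0.61 with array medians aligned (adjusted p = 0.0637).

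The glucocorticoid response list, chosen because Anxa1 is induced by glucocorticoids, held 19 genes, of which 18 were tested. Of these 2 rose in adenoma and 3 in carcinoma, with none lower, beside 4.02% and 4.16% of all genes called higher. The list's medians were -0.35 and -0.11, against -0.14 for all genes in both. Errfi1, a feedback inhibitor of the EGF receptor, rose by 1.76 ± 0.40 in adenoma (adjusted p = 0.00863) and 1.81 ± 0.40 in carcinoma (adjusted p = 0.00638). Over the mean of its probe sets Errfi1 differed by 0.50 ± 0.31 and 0.40 ± 0.31 (adjusted p = 0.355 and 0.448). Errfi1 also missed with the spike-in covariate at 0.80 ± 0.38 and 0.85 ± 0.39 (adjusted p = 0.275 and 0.258), the Gapdh covariate at 1.89 ± 0.70 and 1.93 ± 0.66 (adjusted p = 0.335 and 0.215) and without the 4 high spike-in WT arrays at 1.18 ± 0.49 and 1.24 ± 0.49 (adjusted p = 0.279 and 0.249). Ddit4, a stress-induced inhibitor of mTOR signalling, rose by 1.65 ± 0.33 in adenoma (adjusted p = 0.00366) and 1.42 ± 0.33 in carcinoma (adjusted p = 0.0108), and missed the threshold with the spike-in covariate at 1.47 ± 0.43 and 1.24 ± 0.43 (adjusted p = 0.0567 and 0.123). Ddit4 gave 1.13 ± 0.57 and 0.94 ± 0.54 with the Gapdh covariate (adjusted p = 0.537 and 0.525) and 1.33 ± 0.43 and 1.09 ± 0.43 without the 4 high spike-in WT arrays (adjusted p = 0.137 and 0.249). Dusp1, a phosphatase of MAP kinases, rose by 1.005 ± 0.26 in carcinoma (adjusted p = 0.0212), a call lost without carcinoma 4 or carcinoma 5, with values from 0.88 to 0.94 and adjusted p from 0.0516 to 0.0677. Dusp1 also missed with the spike-in covariate at 1.11 ± 0.34 (adjusted p = 0.0719), the Gapdh covariate at 1.15 ± 0.44 (adjusted p = 0.277) and without the 4 high spike-in WT arrays at 1.15 ± 0.38 (adjusted p = 0.143). Tsc22d3, the glucocorticoid-induced leucine zipper, passed in neither tumour group. In the limma fit it differed by -1.08 ± 0.42 in adenoma (adjusted p = 0.126) and -1.01 ± 0.42 in carcinoma (adjusted p = 0.144).

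Some annexins, among them Anxa1 (lipocortin 1), were described as inhibitors of phospholipase A2, and 14 of 19 listed genes of phospholipase A2 and eicosanoid metabolism were tested. Of these 1 rose in adenoma and 2 in carcinoma, with none lower, beside 4.02% and 4.16% of all genes called higher. The list's medians were 0.25 and 0.42, against -0.14 for all genes in both. Pla2g2a, a secreted phospholipase A2 of Paneth cells, rose by 3.13 ± 0.47 in adenoma (adjusted p = 0.000277) and 3.54 ± 0.47 in carcinoma (adjusted p = 6.6e-05), with all 10 tumour arrays above every WT array. With the Gapdh covariate Pla2g2a gave 2.36 ± 0.80 and 2.83 ± 0.75, with adjusted p of 0.265 and 0.0781. Ptgs2, the inducible cyclooxygenase, rose by 1.44 ± 0.41 in carcinoma (adjusted p = 0.0308). That call of Ptgs2 was lost without WT 1, WT 2, WT 4, carcinoma 1, carcinoma 3 or carcinoma 4, with values from 1.20 to 1.46 and adjusted p from 0.0548 to 0.0960. Ptgs2 also missed at 0.64 ± 0.28 with a 40th percentile floor (adjusted p = 0.149), 1.006 ± 0.52 with the spike-in covariate (adjusted p = 0.326), 2.38 ± 0.61 with the Gapdh covariate (adjusted p = 0.0709) and 1.21 ± 0.61 without the 4 high spike-in WT arrays (adjusted p = 0.411). In none of the 4 pathway lists was a gene called by limma between carcinoma and adenoma, and at an unadjusted p under 0.05 the count was also 0.

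The pattern over the 16 arrays was set against every tested gene by Pearson's r, as a description with no test, since all genes share the arrays and most high values come from the gap between WT and tumour. For Anxa1 the highest r was with Clu (clusterin, a secreted chaperone) at 0.99, Ctse (cathepsin E) at 0.98 and Anxa8 at 0.97. With group means removed these became 0.68, 0.12 and 0.27. For Anxa8 the highest after Anxa1 were S100a6 at 0.96 and Lamb3, a laminin chain, at 0.96, and within groups they were 0.67 and 0.30. For Anxa3 they were Ggh at 0.96, Ctse at 0.95 and Prom1 at 0.95, and within groups 0.60, 0.25 and 0.59.

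For Anxa2 the highest r over the 16 arrays was with Ptpn9 at 0.96, Litaf at 0.95 and Anxa5 at 0.95, and within groups these stayed at 0.82, 0.84 and 0.82. The pair of Anxa2 and Anxa5 had the highest r within groups of all pairs of annexins, followed by Anxa2 with Anxa8 at 0.70 and Anxa3 with Anxa4 at 0.68. Anxa1 and Anxa3, by contrast, stood at 0.93 over the 16 arrays and -0.44 within groups, the lowest of all pairs. For Anxa10 the highest r was with Tff2 at 0.85, Tpst1 at 0.84 and Dip2b at 0.76, and within groups 0.73, 0.81 and 0.47. Tff2, a trefoil peptide of gastric mucous neck cells, rose by 3.39 ± 0.85 in adenoma (adjusted p = 0.0184) and 3.36 ± 0.85 in carcinoma (adjusted p = 0.0173) in the limma fit. The adenoma call of Tff2 was lost without adenoma 3 or adenoma 5, with values from 2.82 to 3.19 and adjusted p from 0.0543 to 0.0584, and the carcinoma call without carcinoma 2 or carcinoma 3, with values from 2.76 to 2.95 and adjusted p from 0.0539 to 0.0551. Tff2 also missed the threshold with the spike-in covariate, at 2.61 ± 1.11 and 2.57 ± 1.11 (adjusted p = 0.208 and 0.231), the Gapdh covariate, at 2.97 ± 1.51 and 2.98 ± 1.42 (adjusted p = 0.537 and 0.421), and without the 4 high spike-in WT arrays, at 3.20 ± 1.32 and 3.17 ± 1.32 (adjusted p = 0.279 and 0.285). In carcinoma Tff2 also missed with the floor at the 10th percentile (adjusted p = 0.0517).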

How the data were processed

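The authors deposited 1 value table of Affymetrix MG_U74Av2 intensity values for 16 arrays, linear and, from the values, scaled to a common trimmed mean. The software behind these intensity values is not stated in these sources. Of 12488 probe sets, 66 controls, 396 with several symbols and 1193 without one were left out, and 10833 with a single symbol were kept.

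Values were floored at their 25th percentile and logged (log2). Each gene was read by its probe set of highest mean. Genes above the floor on at least 5 arrays were fitted with limma 3.58.1 (R 4.3.3) on the 3 groups together (13 residual degrees of freedom), with Benjamini-Hochberg adjustment at 0.05. Exact permutation tests compared the 2 control measures. Figures used Python 3.11.15 and matplotlib 3.10.9.

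All members are named, with list genes past the threshold (at most 4 per list and comparison), direct annexin partners, and the 3 genes most like Anxa1, Anxa2, Anxa3, Anxa8 and Anxa10. Tff2 was described further after its values were seen, and Tsc22d3, which did not pass, was named outside this rule. Members, lists and alternatives (scaling, floor, filter, probe sets, replicate block, control covariates, arrays left out) were chosen with earlier results of these data known.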

Additional observations from a re-analysis of the deposited data

Results flagged for a closer look

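Anxa10 on WT 2 read 192, or 7.58 on the log2 scale, while the other 5 WT arrays were at the floor of 5.55. It was singled out because the gap to the nearest array equalled the whole range of the group. With the other arrays all held at the floor this ratio is 1 for any single value above it, so it is no evidence of an outlying array; their signals before flooring ran from 10.8 to 31. Of 27 groups tested over the 9 annexins this was the 1 that stood out, and chance marks about 1 in 20.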

How the results depend on the processing

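Over 28 alternatives, 16 of which leave out 1 array, 17 of 756 annexin values moved by more than the spread within groups. Many of the 756 could not move, so this share is no measure of stability. Changing the filter, fitting just the 2 groups compared, or leaving out an array outside the comparison leaves a difference unchanged. The count of annexins called higher than WT was 6 of 9 in adenoma and 5 of 9 in carcinoma, beside 4.02% and 4.16% of all genes. With the Gapdh ratio as a covariate it was 3 in adenoma and 3 in carcinoma, those without a call then being Anxa2 and Anxa5, and Anxa10 in adenoma. The cause was not tested. The adenoma call of Anxa10 was kept in 17 of the 28 alternatives. It was lost with the floor at the 40th percentile, with either covariate and without WT 1, WT 2, WT 4 and WT 5 together. Leaving out WT 1, WT 3, WT 4, WT 5, adenoma 1, adenoma 3 or adenoma 5 alone also lost it. In carcinoma Anxa10 was called in 2 of the 28, without WT 2 and without carcinoma 1. Nothing is read from these calls kept or lost, since the family was selected on these contrasts. Anxa10 also passed the filter with the help of the tumour arrays. The labels do not say whether the replicate numbers of the titles pair the arrays. Same-numbered arrays deviated together at r from -0.265 to 0.398 across the 3 comparisons. This does not settle the question, since arrays of different numbers were not compared in this way. With a replicate block the annexin counts were 6 and 5, and all genes called in the limma fit numbered 728 in adenoma and 842 in carcinoma. Under the block Anxa6 went from 0.50 to 0.004 in adenoma and from 0.23 to -0.26 in carcinoma. Of the list genes, Dusp1 (0.94, adjusted p = 0.0518) and Ptgs2 (1.39, adjusted p = 0.0603) then lost their carcinoma call in that fit.

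All genes called in adenoma numbered 617, against 398 with the spike-in covariate, 70 with the Gapdh covariate, 181 without WT 1, WT 2, WT 4 and WT 5 and 384 without adenoma 5. In carcinoma they numbered 675, against 382, 100 and 209 under the first 3 of these. Between carcinoma and adenoma there were 2, with 0 to 6 over the alternatives. Aligning array medians moved the median of all genes from -0.14 to 0.13 in adenoma and from -0.14 to 0.15 in carcinoma. Signals near the floor limit Anxa3, Anxa8 and Anxa10 in WT.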
